A study of Mus musculus with 30 samples.

Results

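RNA-seq counts of CDDO-Me-treated C151S livers were compared with those of CDDO-Me-treated Nrf2-knockout livers, 5 mice against 5 mice, chosen by the genotype and treatment of their labels (10 of the 30 libraries of the series). C151S mice are homozygous for a Keap1 knock-in allele, made by CRISPR-Cas9, in which the sensor cysteine that names the allele is replaced by serine, while their Nrf2 gene is intact. The other group, abbreviated N0 in the labels, lacks functional Nrf2 and has wild-type Keap1. All mice were males, 7 to 10 weeks old, on an albino C57BL/6J background, and each received 1 oral dose of 30 µmol/kg CDDO-Me 24 hours before the liver was taken. The same genotypes after vehicle, also 5 mice each, served as a second, separate comparison of C151S with Nrf2-knockout, and wild-type levels are given for reference. Both alleles are carried in the germline, so that every cell of the liver has them throughout life.

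CDDO-Me (bardoxolone methyl) is a synthetic oleanane triterpenoid that reacts with cysteine thiols. NRF2, encoded by Nfe2l2, is a transcription factor that binds antioxidant response elements together with small MAF proteins and maintains the expression of enzymes and transporters of drug metabolism, glutathione use, and redox balance in the liver. KEAP1 holds NRF2 low by directing it to the proteasome, and this cysteine is a sensor through which several electrophiles interrupt this repression. C151S mice therefore retain NRF2 without this sensor, and Nrf2-knockout mice lack functional NRF2. The comparison asks which liver transcripts separate these 2 genotypes under the drug.

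C151S libraries held 32915664 to 37768767 counts on genes, and Nrf2-knockout libraries 27785049 to 40588590. Mitochondrial transcripts took 3.56% to 4.88% and 3.74% to 6.19% of them. Hepatocyte markers (Alb, Apoa1, Ttr, Serpina1a, and Fabp1) were detected in every library, and their summed level ranged from 60510 to 144000 CPM (counts scaled to library size) in C151S and from 67080 to 109500 CPM in Nrf2-knockout mice. The summed levels of the 10 other cell type lists also overlapped between the groups and none of their genes was called. Among lists with 4 or more markers tested, the direction was uniform for the 5 stellate cell and fibroblast markers, lower in C151S with a median log2 difference of -0.46, the 4 T and NK cell markers, lower with a median of -0.30, and the 6 Kupffer cell markers, higher with a median of 0.17. Of the Kupffer cell markers, 1 had an unadjusted p under 0.05 and 1 had no overlap of the groups, beside 7.82% and 1.78% of all genes tested. The largest log2 difference of these markers was 1.01. The part of these cell types in the results was not tested. Of the 5 exocrine pancreas markers, 4 were at the floor of detection of 3 counts in every library of both groups. Both groups were split by the clock gene Arntl in the same proportion, with 2 mice at 2.52 or more on the log2 CPM scale and 3 mice at 0.90 or less. The groups used beside them were not balanced in this way. On the high side were 3 vehicle-treated C151S mice, 2 vehicle-treated Nrf2-knockout mice, and all 5 wild-type mice of either treatment. In whole liver, fewer cells of a type and less RNA per cell cannot be told apart.

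The targeted gene was examined first. Nfe2l2 measured 42.0, 68.6, 71.9, 80.2, and 69.6 CPM in the 5 C151S mice and 22.4, 23.3, 27.7, 28.7, and 29.2 CPM in the 5 Nrf2-knockout mice. Every C151S mouse was above every Nrf2-knockout mouse, with replicate 1 of C151S well below the other 4. The difference was 1.34 on the log2 scale (SE 0.16, edgeR quasi-likelihood test with Benjamini-Hochberg adjustment, FDR = 0.00732), and it was 1.14 after vehicle. Nfe2l2 transcript thus remained countable in the knockout, at 825 to 1156 counts per library, and counts per gene do not show which exons they come from. Keap1, whose C151S allele differs by an amino acid and cannot be checked by expression, had a mean of 54.2 ± 8.2 CPM in C151S (SD, n = 5) and of 50.5 ± 7.5 CPM in the knockout, a log2 difference of 0.10 (SE 0.13, FDR = 0.89) with overlapping ranges.

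After CDDO-Me, 23 of 14186 genes tested differed between the genotypes (FDR under 0.05, with a log2 difference of 0.5 or more in size), which is 0.162% of them. Of these, 18 were higher in C151S (0.127% of genes tested) and 5 were lower (0.0352%). Of the 18, 10 are grouped here under drug metabolism, a group drawn after the calls were known. They include the carboxylesterases Ces1b and Ces1g, the oxidoreductases Aox1 and Nqo1, the transferases Gstm1, Ugt1a6b, Ugt2b5, and Ugt2b35, and the efflux transporter Abcc3. Mocs1, an enzyme of the molybdenum cofactor that aldehyde oxidases require, was added and is the 1 that is in none of the gene lists. The share of such genes among the 14186 tested was not counted. The CPM ranges of the groups did not overlap for any of the 23 genes, and for 253 of all genes tested (1.78%). The calls rest on the same libraries, so this separation largely follows from the selection and is no separate support. An unadjusted p under 0.05 was found for 1110 genes (7.82%), 542 higher and 568 lower in C151S. The calls lay on 12 chromosomes, with 6 on chromosome 8, 4 on chromosome 1, and 3 on chromosome 5. Within 10 Mb of Nfe2l2 0 of 93 other genes passed and 14% had an unadjusted p under 0.05, and within 10 Mb of Keap1 these values were 0 of 105 and 6.67%. DESeq2 called 131 genes in the same comparison, 1 fit of all 30 libraries called 126, and both sets included all 23. With a mouse left out 11 to 38 genes were called. The lowest count came without C151S replicate 4 or without replicate 1 or 5 of the knockout, and the highest without C151S replicate 2.

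**Figure D1:**
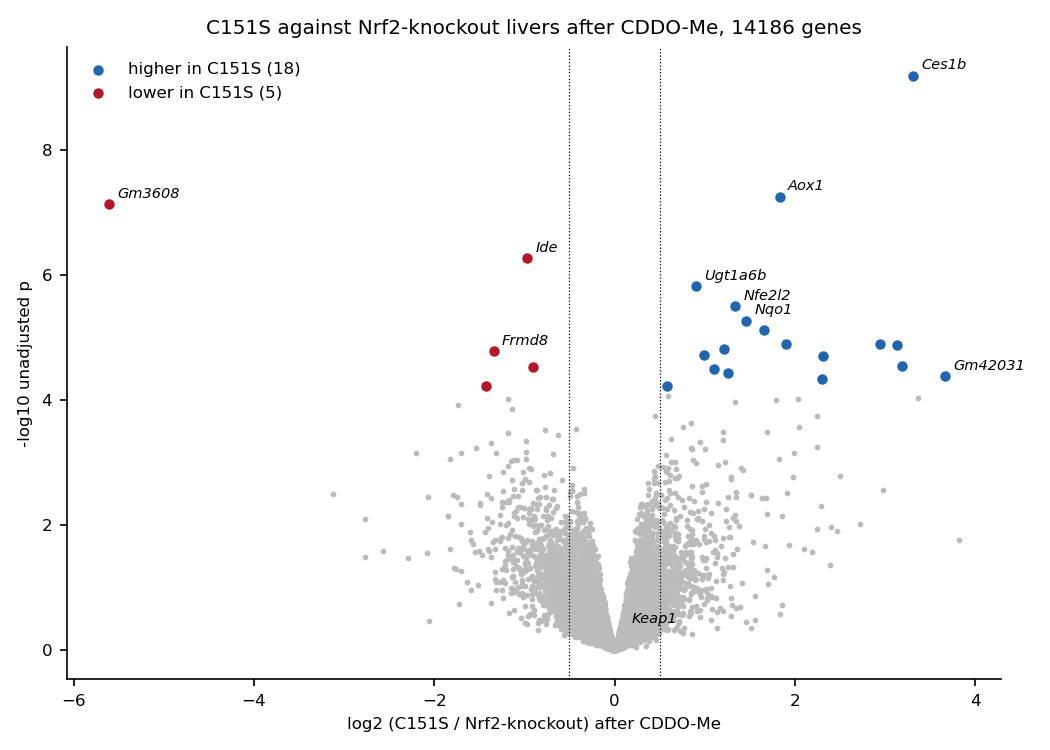
Log2 ratio of C151S to Nrf2-knockout livers after CDDO-Me (x axis) against -log10 of the unadjusted p of edgeR (y axis) for 14186 genes, with the 18 genes called higher in C151S in blue, the 5 called lower in red, and dotted lines at the size threshold of 0.5. Ces1b, Aox1, and the pseudogene Gm3608 stand farthest up, and Keap1 lies near 0.

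The 2 called genes with a match to the antioxidant response element core in their promoter are shown, and were picked for those matches. Nfe2l2 is the gene that was targeted. After Gm42031 and Ces1b, 9130409I23Rik had the largest positive log2 difference of the called genes. Promoters of 300 bases (250 before and 50 after the transcription start, RefSeq, build GRCm38.p6) were found for 13 of the 18 genes called higher and 4 of the 5 called lower. The core was searched as TGACNNNGC on both strands, and matches are in capitals. The stretch of 9130409I23Rik lies on the forward strand at chr1:181051068-181051175, from 169 to 62 bases before the start, and holds 3 matches; that of Nfe2l2 lies on the reverse strand at chr2:75704885-75704913, from 250 to 222 bases before the start, and holds 1.
9130409I23Rik: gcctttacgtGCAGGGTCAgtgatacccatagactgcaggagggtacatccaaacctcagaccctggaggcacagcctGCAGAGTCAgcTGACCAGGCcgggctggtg
Nfe2l2: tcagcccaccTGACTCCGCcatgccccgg
Both genes were higher in C151S, and 0 of the 7 promoters of 4 genes called lower held the core. The share with a match was 15.4% of the genes called higher and 14% of the 26994 genes with a promoter, while 3 or more matches were found in 26 of 32817 promoters (0.0792%). A match describes letters only, and sites outside this window were not searched.

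Carboxylesterases hydrolyze ester and amide bonds of drugs and lipids, and the Ces1 genes form a cluster on chromosome 8. Ces1b had the lowest p of all genes. It measured 83.5, 84.2, 105, 142, and 111 CPM in C151S and 9.22, 11.3, 9.54, 9.11, and 13.9 CPM in knockout mice. The groups were separated by a wide gap, and the log2 difference was 3.31 (SE 0.18, FDR = 9.1e-06), a 9.89-fold higher level. Ces1g measured 64.3, 55.0, 202, 83.5, and 46.2 CPM against 13.6, 6.41, 13.1, 15.3, and 10.03 CPM, so that C151S mice varied more among themselves than knockout mice, and replicate 3 was the highest (2.95, SE 0.41, FDR = 0.0166). The call of Ces1g was lost without replicate 1, 3, or 5 of the Nrf2-knockout mice, where its FDR reached 0.0604.

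Of the 13 carboxylesterases tested, 2 were called, 10 were above 0, and 46.2% had an unadjusted p under 0.05. Of all 14186 genes tested, 0.162% were called, 7059 were above 0, and 7.82% had an unadjusted p under 0.05. The median log2 difference was 0.55 for the carboxylesterases, beside -0.0013 for all genes. The other members with an unadjusted p under 0.05 were Ces1f (2.24), Ces1d (1.01), Ces1e (0.87), and Ces1c (0.55), all neighbors of Ces1b within 250 kb and none past the adjusted threshold. The pseudogene Gm45727, in the same cluster, just missed it with a log2 difference of 3.37 (FDR = 0.0502), at 22 to 77 counts per library in C151S and 0 to 11 in the knockout. Members of this family are similar in sequence, and reads that aligned to more than 1 place were not counted.

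Oxidation and reduction of aldehydes, quinones, and epoxides formed the next group. Aox1, an aldehyde oxidase, measured 60.4, 103, 91.8, 79.7, and 70.7 CPM in C151S and 26.8, 21.4, 20.7, 20.1, and 24.5 CPM in knockout mice. The groups were far apart, and the log2 difference was 1.83 (SE 0.15, FDR = 0.000348). Its neighbor Aox3 had a log2 difference of 1.996 (FDR = 0.177) and was not called. Mocs1 measured 112, 99.3, 113, 104, and 118 CPM against 79.9, 76.4, 63.8, 69.7, and 74.5 CPM (0.58, SE 0.10, FDR = 0.0364). This was the smallest difference among the calls, and of the 10 fits that left out a mouse it was kept in 1, without C151S replicate 2.

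Nqo1, the quinone reductase used as a readout of NRF2 activity, measured 5.56, 7.51, 6.43, 8.11, and 7.66 CPM in C151S and 2.29, 3.41, 2.92, 1.88, and 2.24 CPM in knockout mice. All C151S mice were higher, with a log2 difference of 1.46 (SE 0.19, FDR = 0.0108). The call was lost with the replicate number as a block. Levels after vehicle were 6.70 ± 0.39 CPM for C151S, against 1.96 ± 0.52 CPM for the knockout, and wild-type mice had 7.20 ± 2.4 CPM after vehicle and 64.4 ± 25 CPM after CDDO-Me (SD, n = 5). C151S mice under the drug therefore stood at 11% of the CDDO-Me-treated wild-type mean for this transcript, and Nrf2-knockout mice at 3.96%. Among 22 quinone, carbonyl, and epoxide enzymes, Aox1 and Nqo1 were called, beside 0.162% of all genes tested. An unadjusted p under 0.05 was found for 45.5% of them, 9 higher and 1 lower in C151S, beside 7.82% of all genes. The median log2 difference was 0.39. Ephx1, the microsomal epoxide hydrolase (1.00), and Htatip2 (0.63) were among the 9. Akr1b7, an aldo-keto reductase, was the 1 with a lower level (-2.77, FDR = 0.57).

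Gstm1 led the glutathione S-transferases, which conjugate electrophiles with glutathione. It measured 712, 1183, 1083, 1795, and 1893 CPM in C151S and 320, 283, 482, 356, and 337 CPM in knockout mice. The groups were apart, although replicate 1 of C151S was well below replicates 4 and 5, and the log2 difference was 1.90 (SE 0.27, FDR = 0.0166). The call was lost without replicate 1, 4, or 5 of the Nrf2-knockout mice and with the replicate number as a block (FDR up to 0.0846 over all alternatives). Wild-type mice had 10770 ± 1682 CPM after CDDO-Me (SD, n = 5), of which the C151S mean was 12.4% and the Nrf2-knockout mean 3.30%. Among 21 transferases, Gstm1 was the 1 call. An unadjusted p under 0.05 was found for 42.9% of them, beside 7.82% of all genes tested. Of these, 8 were higher in C151S, among them Gstm3 (1.51), Gstm4 (0.69), Gstm2 (0.56), Gsta2 (1.93), and Gsta3 (1.26), and 1 was lower, Gstp3 (-0.59). The median log2 difference of the 21 was 0.41.

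UDP-glucuronosyltransferases attach glucuronic acid to bilirubin, steroids, and drugs. Ugt1a6b measured 28.0, 27.8, 31.8, 26.6, and 27.2 CPM in C151S and 14.3, 16.5, 13.1, 14.5, and 17.2 CPM in knockout mice, with little spread within either group (0.90, SE 0.10, FDR = 0.0042). Ugt2b5 measured 444, 515, 669, 607, and 555 CPM against 275, 165, 273, 271, and 214 CPM (1.22, SE 0.17, FDR = 0.0177). Ugt2b35 measured 131, 136, 229, 132, and 130 CPM against 67.1, 48.5, 72.3, 77.4, and 50.6 CPM (1.26, SE 0.20, FDR = 0.0272), and its high value in replicate 3 stood apart from 4 close ones. The 3 genes were without overlap between the groups, as were all called genes. Ugt1a genes share exons, and reads that overlapped more than 1 gene were not counted. The counts of Ugt1a6b thus come from the part of it that is not shared. The call of Ugt2b5 was lost without C151S replicate 4 or knockout replicate 5, and that of Ugt2b35 without C151S replicate 4 or knockout replicate 1, 2, 3, or 5. With the replicate number as a block the calls of all 3 genes were lost.

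Gm18635, a processed pseudogene that lies 0.885 kb from Ugt2b35 on the same strand, was also called, at 36 to 81 counts per library in C151S and 5 to 14 in Nrf2-knockout mice (2.31, SE 0.34, FDR = 0.0183), and its call was lost without any 1 of the 5 knockout mice. Among 18 glucuronidation genes there were 3 calls, beside 0.162% of all genes tested. An unadjusted p under 0.05 was found for 38.9% of the list, beside 7.82% of all genes. Of these, 6 were higher in C151S, including Ugdh (0.86), which makes the glucuronic acid donor, and Ugt2b36 (0.97). Ugt2b37, in the same cluster, went the other way, at -1.74 (FDR = 0.321). The median of the list was 0.25.

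Abcc3, which exports conjugates from the hepatocyte into blood, measured 134, 254, 285, 273, and 304 CPM in C151S and 62.3, 65.8, 81.6, 80.4, and 104 CPM in knockout mice. Replicate 1 of C151S was the nearest to the knockout range and still above it (1.66, SE 0.22, FDR = 0.0135). It was the 1 call among 13 ABC transporters, whose median was 0.12, and Abcc2, the canalicular counterpart, had a log2 difference of 0.43 (FDR = 0.553).

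**Figure D2:**
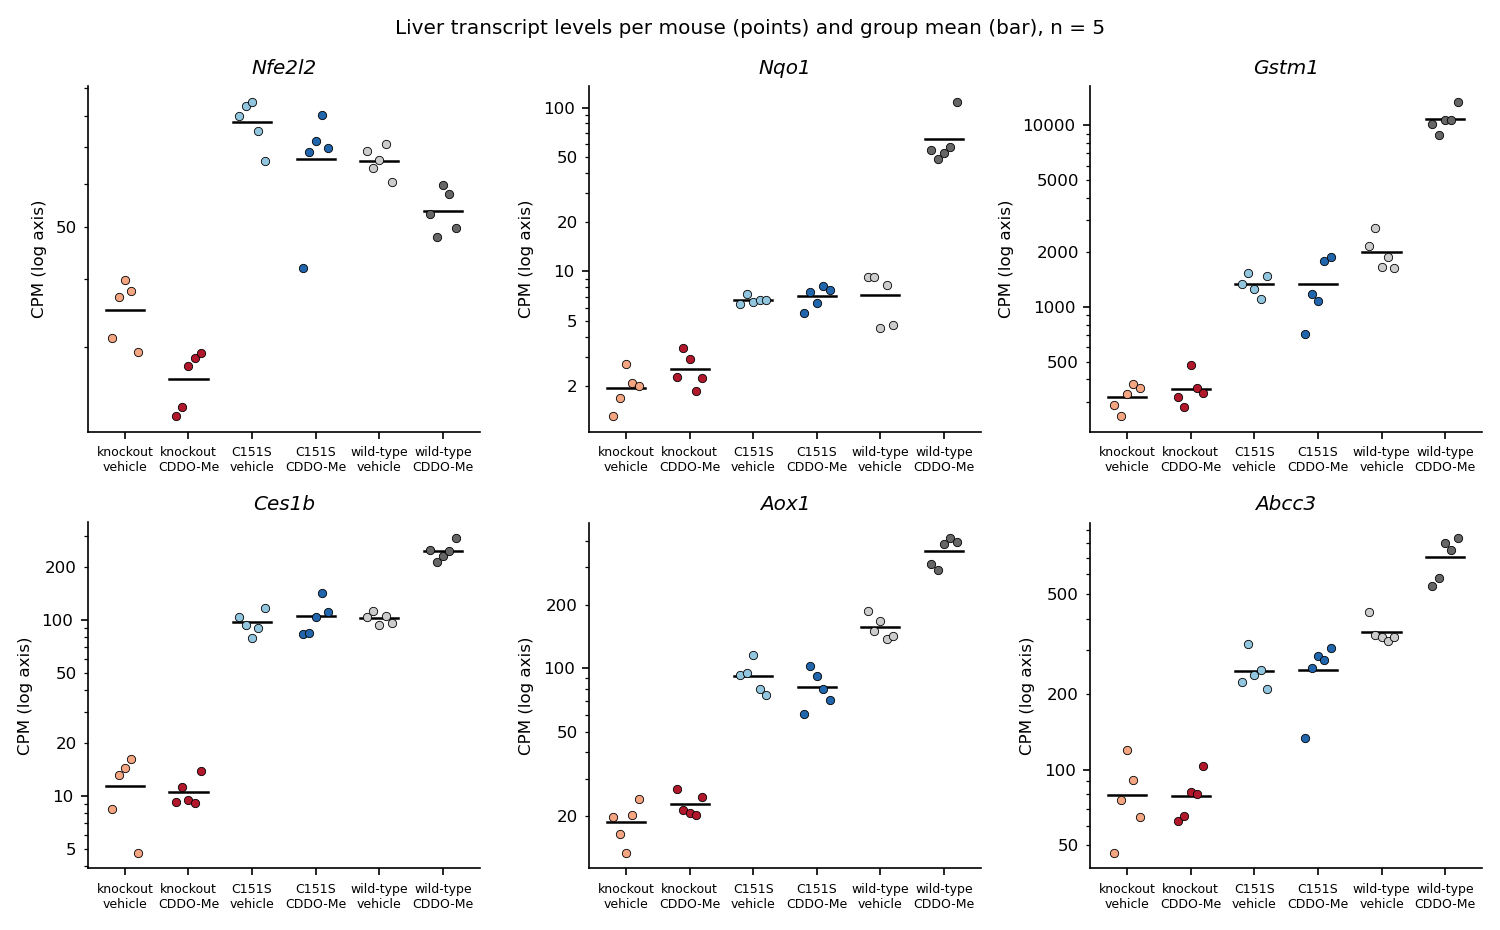
CPM on a log axis for Nfe2l2 and 5 genes of drug metabolism in each mouse (points) and the mean of each group (bars, n = 5), with Nrf2-knockout in red, C151S in blue, and wild-type in gray, paler after vehicle. In all 6 panels the C151S mice lie above the Nrf2-knockout mice in both treatments, and wild-type mice after CDDO-Me are the highest for Nqo1, Gstm1, Ces1b, Aox1, and Abcc3.

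The remaining genes called higher have no shared function known from their names. Scnn1a, the alpha subunit of the epithelial sodium channel, measured 41.1, 34.7, 42.6, 37.2, and 30.8 CPM in C151S and 21.7, 23.3, 14.4, 17.3, and 16.9 CPM in knockout mice (0.99, SE 0.14, FDR = 0.0183). Slc35e3, of a solute carrier family, measured 17.3, 15.1, 23.7, 14.6, and 13.2 CPM against 9.09, 9.0004, 6.88, 7.06, and 6.96 CPM (1.10, SE 0.17, FDR = 0.0253). Both were near the wild-type level in C151S and under it in the knockout, with 36.3 ± 4.6 and 18.6 ± 3.6 CPM in CDDO-Me-treated wild-type mice (SD, n = 5). The call of Scnn1a was lost without replicate 3 or 4 of C151S or 4 or 5 of the knockout, and that of Slc35e3 without C151S replicate 4 or knockout replicate 1, 3, 4, or 5. Both calls were also lost with the replicate number as a block and with 1 surrogate variable as a covariate.

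The gene 9130409I23Rik, annotated as protein-coding 30.3 kb from Ephx1, measured 3.46, 14.1, 13.4, 13.0, and 7.15 CPM in C151S and 1.06, 0.387, 2.23, 0.660, and 1.21 CPM in knockout mice (3.19, SE 0.48, FDR = 0.0245). After vehicle all 5 C151S mice were higher than any of them after CDDO-Me, between 19.5 and 27.9 CPM, whereas the knockout mice had 0.371 to 1.59 CPM. The difference between the genotypes was 4.44 on the log2 scale after vehicle, and the test of a different response did not pass (-1.26, SE 0.53, FDR = 0.943). The call after CDDO-Me was lost without C151S replicate 3 or 4 or knockout replicate 1, 4, or 5.

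Among the genes called lower in C151S, Ide, the insulin-degrading enzyme, had the lowest p of the protein-coding genes. It measured 91.7, 81.0, 84.0, 76.3, and 80.5 CPM in C151S and 163, 139, 173, 166, and 167 CPM in knockout mice (-0.97, SE 0.10, FDR = 0.0019). The C151S level was lower after vehicle as well, at 75.1 ± 7.4 CPM against 136 ± 23 CPM (-0.85, FDR = 0.00971). Wild-type mice had 232 ± 32 CPM after CDDO-Me and 218 ± 9.7 CPM after vehicle (SD, n = 5), so that Ide was the 1 called gene with the order C151S, Nrf2-knockout, wild-type from low to high. Of the 6 genes tested within 250 kb of Ide, 0 had an unadjusted p under 0.05.

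Frmd8, a FERM domain protein that binds iRhom proteins, measured 17.1, 13.8, 18.2, 12.5, and 13.0 CPM in C151S and 49.3, 28.4, 49.0, 34.0, and 28.0 CPM in knockout mice (-1.34, SE 0.19, FDR = 0.0178). The other groups were all near the C151S level, with means of 14.6 CPM in vehicle-treated C151S, 16.7 CPM in vehicle-treated Nrf2-knockout, and 12.9 and 15.2 CPM in wild-type mice after CDDO-Me and vehicle. The difference after vehicle was -0.19 (FDR = 0.724), and the difference between responses was -1.15 (SE 0.24, FDR = 0.226). Of 31 neighbors tested within 250 kb, 3 were lower in C151S at an unadjusted p under 0.05: the overlapping antisense gene Frmd8os (-1.11), Slc25a45 (-0.98), which lies 2.53 kb away, and the long noncoding RNA Malat1 (-0.99). The neighbors Map3k11 (0.31) and Rnaseh2c (0.37) were higher at that level, which 7.82% of all genes tested reached in either direction. The call was lost without replicate 4 or 5 of C151S or replicate 1 or 3 of the Nrf2-knockout mice.

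Bco1, which cleaves beta-carotene to retinal, measured 6.74, 8.38, 7.03, 8.96, and 7.63 CPM in C151S and 12.2, 17.6, 15.9, 12.2, and 14.8 CPM in knockout mice (-0.91, SE 0.14, FDR = 0.0245). Fam118a measured 1.53, 2.31, 1.54, 1.27, and 1.32 CPM against 6.09, 4.84, 3.74, 3.44, and 3.31 CPM (-1.43, SE 0.23, FDR = 0.0364). Bco1 was higher in Nrf2-knockout than in C151S and in C151S than in wild-type mice by mean CPM in both treatments. Its call was lost without C151S replicate 3, 4, or 5 or knockout replicate 2, 3, or 5, and that of Fam118a without any 1 mouse other than C151S replicate 2. The pseudogene Gm3608 on chromosome 1 had 0, 3, 4, 4, and 1 counts in C151S and 176, 92, 214, 79, and 98 counts in Nrf2-knockout mice. Summed over the libraries these were 12 and 659 counts, a level 55.3 times higher in the knockout (exact 95% interval for counting error 31.5 to 108). In vehicle-treated knockout mice it had 77, 128, 249, 6, and 0 counts, so that 2 of those 5 mice were in the range of the other genotypes.

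Vehicle-treated mice share no library with the CDDO-Me-treated mice, and the same comparison there called 50 of 14323 genes (0.349%), 44 higher and 6 lower in C151S. None of the cell type markers was called in it, but 4 of 5 cholangiocyte markers (median log2 difference -0.81), 2 of 5 stellate cell and fibroblast markers (-0.11), 1 of 5 sinusoidal endothelial markers (-0.24), and 1 of 4 neutrophil markers (-1.15) were lower in C151S at an unadjusted p under 0.05, and 3 of 5 erythroid markers (0.62) were higher. That level was reached by 11.3% of all genes tested after vehicle. The part of these cell types in the vehicle results was not tested. Of the 23 genes called after CDDO-Me, 22 were tested after vehicle, 21 had the same direction, and 13 were called, all in the same direction. These 13 were 56.5% of the calls after CDDO-Me and 26.0% of those after vehicle. Conversely, 48 of the 50 vehicle calls were tested after CDDO-Me, 46 had the same direction, and 39 had an unadjusted p under 0.05. Ephx1, Gstm4, Ces1f, Ugdh, and Aox3 were called after vehicle and not after CDDO-Me, where their log2 differences were 1.00, 0.69, 2.24, 0.86, and 1.996. Gadd45g, a stress-response gene, was higher in C151S after vehicle (1.94, FDR = 0.0044) and had a log2 difference of -0.07 after CDDO-Me.

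**Figure D3:**
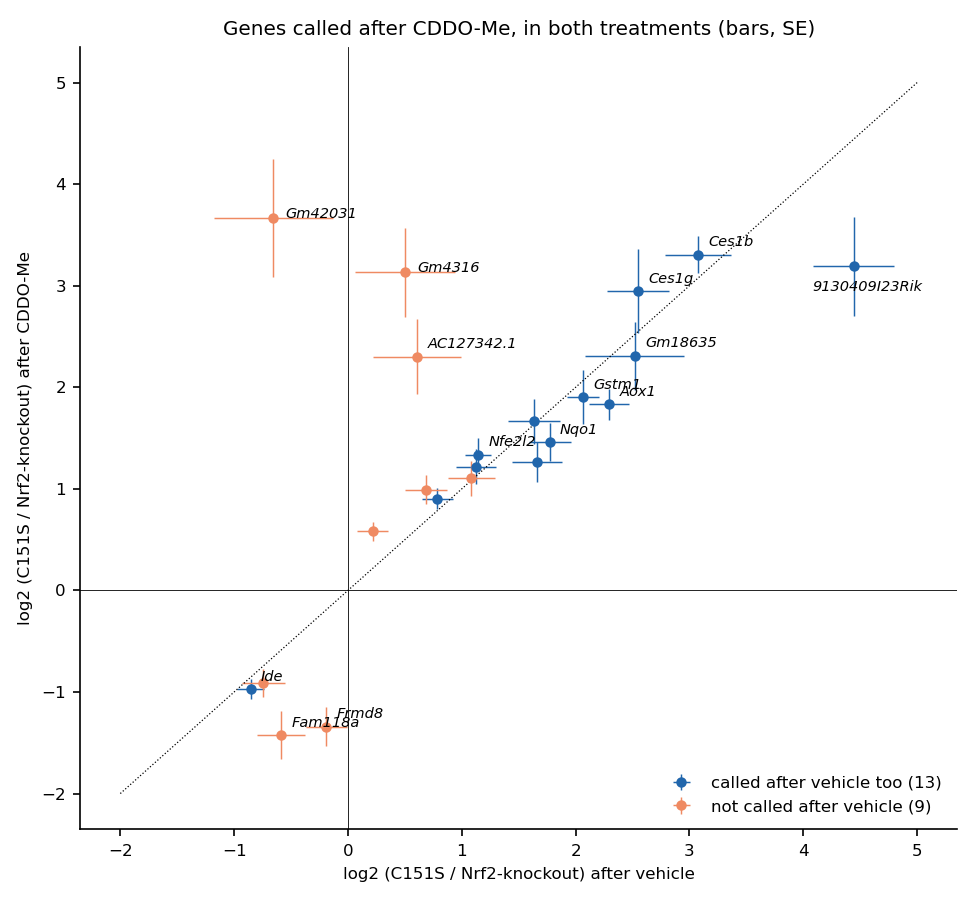
Log2 ratio of C151S to Nrf2-knockout after vehicle (x axis) and after CDDO-Me (y axis) for the 22 genes called after CDDO-Me and tested in both, with bars of 1 SE and a dotted line of equal values. The 13 genes called in both treatments lie on the same side of 0 on both axes, with 9130409I23Rik higher after vehicle (4.44) than after CDDO-Me (3.19), and Gm42031, Gm4316, AC127342.1, and Frmd8, not called after vehicle, are farther from 0 after CDDO-Me.

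The response to CDDO-Me itself was compared between the genotypes as an interaction in a fit of all 30 libraries. It differed for 2 of 15010 genes (0.0133%) at an FDR under 0.05, and 739 had an unadjusted p under 0.05. One was Gm42031, a long noncoding RNA gene on chromosome 8 that lies 2.78 kb from Zfp791 on the same strand. It measured 1.83, 7.71, 19.1, 10.5, and 17.8 CPM in CDDO-Me-treated C151S and 0.452, 1.31, 0.575, 1.53, and 0.649 CPM in CDDO-Me-treated Nrf2-knockout mice. After vehicle no mouse of either genotype exceeded 0.891 CPM, and the CDDO-Me-treated wild-type mean was 0.448 CPM. High levels were thus found in C151S mice after CDDO-Me alone among the 6 groups, with replicate 1 the lowest of them, and the difference between responses was 4.32 (SE 0.75, FDR = 0.0252). The genotype difference after CDDO-Me was 3.67 (SE 0.58, FDR = 0.0291), a call kept in 2 of the 10 fits that left out a mouse, those without C151S replicate 1 or 2.

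The other was Plcd3, a phospholipase C that cleaves phosphoinositides. It measured 0.542, 2.05, 3.67, 2.54, and 2.02 CPM in CDDO-Me-treated C151S and 0.611, 0.435, 0.383, 0.521, and 0.325 CPM in CDDO-Me-treated Nrf2-knockout mice. All C151S mice but replicate 1 were above all knockout mice. After vehicle the means were 0.317 CPM in C151S and 0.683 CPM in knockout mice, and the difference between responses was 3.33 (SE 0.52, FDR = 0.0105). The genotype difference after CDDO-Me was 2.24 (SE 0.42, FDR = 0.0759), past the threshold in neither treatment. A fit of the 20 mutant libraries alone found 0 genes with a different response. A filter that required 10 counts in every library also found 0, but it removed both genes before the test. In vehicle-treated C151S mice, Gm42031 had as few as 3 counts and Plcd3 as few as 9.

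The long noncoding RNA genes Gm4316 and AC127342.1 were called after CDDO-Me and not after vehicle, though their responses did not differ past the threshold (FDR = 0.943 for both). Gm4316 measured 0.407, 2.51, 1.32, 1.75, and 2.05 CPM in C151S and 0.145 to 0.236 CPM in Nrf2-knockout mice after CDDO-Me (3.13, SE 0.44, FDR = 0.0166), and 0.128 to 0.521 CPM in C151S after vehicle. After CDDO-Me it had 12 to 98 counts per library in C151S and 5 to 8 in the knockout. It could thus pass the low-count filter through C151S alone. AC127342.1 measured 13.8, 33.1, 23.3, 16.4, and 11.3 CPM against 2.60, 5.30, 1.80, 4.48, and 5.72 CPM (2.30, SE 0.37, FDR = 0.0308). Its level in vehicle-treated Nrf2-knockout mice ranged from 5.15 to 31.2 CPM, overlapping both groups. Both calls were lost without C151S replicate 4 or any 1 of the 5 knockout mice, and that of AC127342.1 also without C151S replicate 3.

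**Figure D4:**
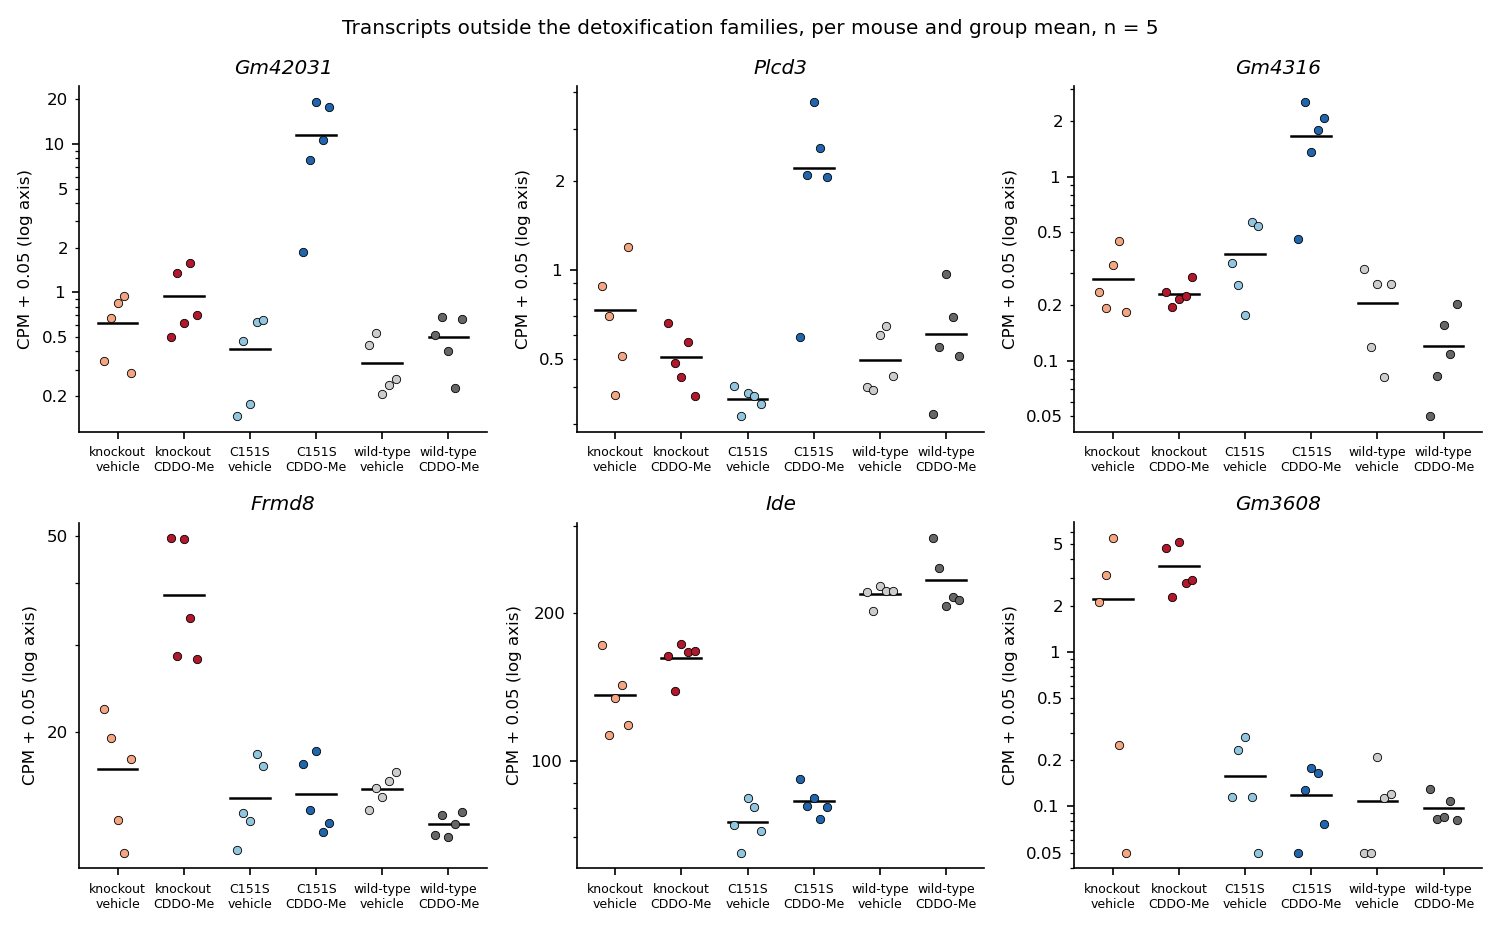
CPM with 0.05 added, on a log axis, for 6 transcripts in each mouse (points) and the mean of each group (bars, n = 5), colored as in the plot of drug metabolism genes. Gm42031, Plcd3, and Gm4316 are high in CDDO-Me-treated C151S mice except replicate 1, Frmd8 is high in CDDO-Me-treated Nrf2-knockout mice, Ide is lowest in C151S mice, and Gm3608 is near 0 outside the Nrf2-knockout.

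Set beside wild-type mice after CDDO-Me, 14 of the 23 genes had the order Nrf2-knockout, C151S, wild-type from low to high mean CPM. The calls had already fixed the order of C151S and Nrf2-knockout, so only the place of wild-type was free. The share of all genes with this order was not counted. For the genes of drug metabolism, the C151S mean was 42.7% of the wild-type mean for Ces1b, 22.5% for Aox1, 35.6% for Abcc3, 13.1% for Ces1g, and 35.1% for Ugt2b5. After vehicle the same C151S shares were 94.7%, 58.5%, 70.0%, 43.7%, and 63.2%. The share was 11% for Nqo1, 12.4% for Gstm1, 48.8% for Ugt1a6b, and 18.2% for Ugt2b35 after CDDO-Me, and 93.1%, 66.9%, 65.0%, and 51.9% after vehicle. Mocs1 was at 78.8% after CDDO-Me and 73.1% after vehicle. Nfe2l2, Scnn1a, Gm42031, and Gm4316 were instead highest in C151S by mean, and Gm3608, Frmd8, Bco1, and Fam118a were highest in the knockout. No test against wild-type mice was made for these shares.

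Other NRF2-linked lists held no call after CDDO-Me. The 14 genes of heme breakdown and iron handling had a median log2 difference of 0.34. An unadjusted p under 0.05 was found for 35.7% of them, beside 7.82% of all genes tested. These 5 were all higher in C151S, including Blvrb, a biliverdin reductase (0.86, FDR = 0.164), and the ferritin chains Ftl1 (0.67) and Fth1 (0.56). Of 22 glutathione and thioredoxin enzymes 0 were called, and 3 were at that level and higher: Gclc (0.63), Txnrd1 (0.39), and Gclm (0.26). Ggct, a gamma-glutamylcyclotransferase of glutathione turnover, was lower (-0.78, FDR = 0.251). Srxn1, which reduces overoxidized peroxiredoxins, averaged 35.6 ± 3.3 CPM in C151S (SD, n = 5), against 32.2 ± 5.1 CPM in the knockout, with overlapping ranges (0.14, SE 0.12, FDR = 0.809). Cbr3, a carbonyl reductase, had 12 to 25 counts against 7 to 14 (0.63, SE 0.26, FDR = 0.564), and Gpx2 had 0 to 2 counts in every library and was not tested. Of the 10 NADPH supply enzymes 0 were at an unadjusted p under 0.05, and Me1, malic enzyme, had a log2 difference of 0.65 (FDR = 0.648).

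Among cytochromes P450 of drug metabolism, 0 of 21 were called and the median log2 difference was 0.43. At an unadjusted p under 0.05 were 6 (28.6%, beside 7.82% of all genes tested), all higher in C151S, led by Cyp2a5 (2.98, SE 0.79, FDR = 0.315). Cyp2a5, which oxidizes coumarin and nicotine, measured 148, 169, 1287, 759, and 510 CPM in C151S and 61.5, 14.7, 52.1, 211, and 24.6 CPM in knockout mice, and the highest knockout mouse was above 2 of the C151S mice. PPAR-alpha targets, genes of fatty acid oxidation, had 0 of 25 called and a median of -0.23. Cyp4a31, a fatty acid hydroxylase of that list, just missed the threshold at 17.6, 15.1, 10.5, 13.5, and 24.97 CPM in C151S against 33.0, 41.0, 32.0, 45.3, and 34.0 CPM in Nrf2-knockout mice (-1.18, SE 0.20, FDR = 0.0502). Creg1, a secreted glycoprotein of the endolysosome, measured 332 to 394 CPM against 228 to 248 CPM (0.59, FDR = 0.0502), missing it as closely, and was called after vehicle (0.76, FDR = 0.00906).

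Mitosis and spindle genes had 0 of 18 members called after CDDO-Me, and all 18 log2 differences were below 0, with a median of -0.70. An unadjusted p under 0.05 was found for 6 (33.3%), beside 7.82% of all genes tested. Tpx2, a spindle assembly factor, measured 0.0678, 0.307, 0.220, 0.396, and 0.324 CPM in C151S and 0.505, 1.02, 1.99, 0.556, and 0.561 CPM in knockout mice (-1.80, SE 0.49, FDR = 0.321). It was without overlap, as were 1.78% of all genes tested. Its counts were 2 to 14 against 16 to 83, so it could pass the low-count filter through the knockout alone. Of the 22 listed, 18 passed this filter, and members kept through 1 group alone tend to be higher in it. The median of the list after vehicle was -0.13, with 0 of 22 members at an unadjusted p under 0.05. The genes of this list are expressed together in dividing cells and are not independent of each other.

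The acute phase list, plasma proteins made under inflammation, had all 19 members above 0 after CDDO-Me with a median of 0.48, and 14 of 19 below 0 after vehicle with a median of -0.24, but 0 were called in either treatment. An unadjusted p under 0.05 was found for 5.26% of them after CDDO-Me, beside 7.82% of all genes tested. After vehicle these shares were 10.5% and 11.3%. Members of a list can vary together, so their directions are not independent of each other. Saa3, a serum amyloid A, measured 152, 7.45, 12.0, 7.83, and 32.2 CPM in C151S and 9.89, 16.8, 9.42, 9.59, and 3.19 CPM in knockout mice (2.11, SE 0.81, FDR = 0.543), and replicates 1 and 5 of C151S were the 2 mice above the knockout range. Of 13 cytosolic heat shock genes, 5 were higher in C151S at an unadjusted p under 0.05, among them Dnajb1 (0.70, FDR = 0.321) and Hspa1b (1.05, FDR = 0.438). Fos, an immediate early gene, measured 0.915, 29.0, 17.98, 10.7, and 14.5 CPM against 6.06, 22.9, 18.1, 14.8, and 5.75 CPM, with a log2 difference of 0.11 (SE 0.63, FDR = 0.982). After vehicle the median of the immediate early list was 1.33, beside 0.08 after CDDO-Me, and 0 members were called in either treatment.

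**Figure D5:**
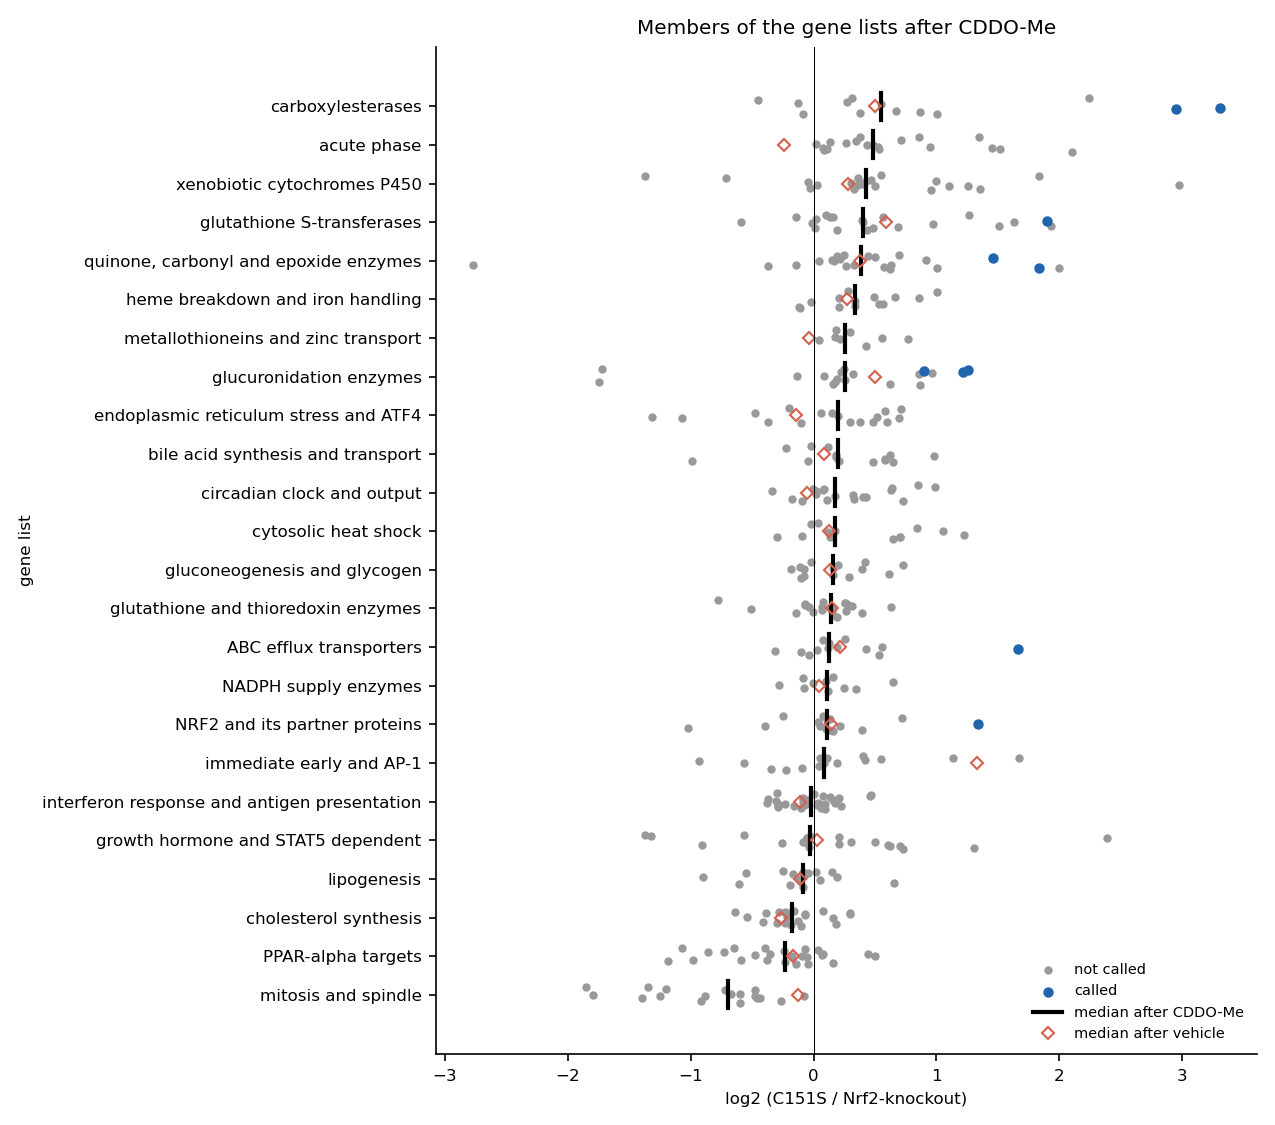
Log2 ratio of C151S to Nrf2-knockout after CDDO-Me for the tested members of each gene list (points), with called genes in blue, the list median as a black bar, and the median after vehicle as an open diamond. Called genes are found in 6 of the 24 lists shown, and mitosis and spindle genes lie below 0 throughout.

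The lowest p in other lists belonged to genes that were not called. Their FDR lay between 0.367 and 0.829. The transcription factors among them were Atf4, of the stress response (0.58), Atf3, an immediate early gene (1.67), and Cux2, which is higher in female than in male mouse liver (2.39). Of the metabolic genes, Cyp27a1 of bile acid synthesis had a log2 difference of 0.58, Sc5d of cholesterol synthesis -0.41, and Elovl5, a fatty acid elongase, -0.55. The clock gene Per1 (0.64), the antigen peptide transporter Tap1 (-0.38), and the zinc transporter Slc39a10 (0.56) were the others described. The laminin chain Lama3 (-0.68), the selenium-binding protein Selenbp2 (-1.32), the cyclin Ccna2 (-0.72), and the elongase Elovl3 (-0.09) had FDR between 0.623 and 0.99. Selenbp2 measured 709 CPM in Nrf2-knockout replicate 1 and 15.6 to 145 CPM in the other 4 knockout mice, and its difference was -0.03 without that mouse. Cux2 measured 18.7 and 37.9 CPM in replicates 4 and 5 of C151S and 0.712 to 2.67 CPM in the other 3, and its difference was 1.33 without replicate 5. On the sides of the Arntl split, compared without a test, the Cux2 difference was -2.26 for the mice with high Arntl (2 against 2) and 4.17 for the others (3 against 3).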

How the data were processed

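Liver mRNA libraries (stranded, paired-end) were aligned by the authors to mm10 with STAR 2.7.7, and the deposited values are raw counts per gene (GENCODE release 23), without normalization. Symbols and positions were taken from GENCODE release 21 for 55154 of 55335 genes. The edgeR 4.0.16 quasi-likelihood F-test (R 4.3.3, legacy fit) was run after filterByExpr and TMM normalization. This low-count filter keeps a gene counted in 1 group alone, so a gene of few counts could enter through its higher group. The SE is the size of the log2 difference over the root of F. CPM used all 30 libraries, and log2 CPM a prior count of 2. The isolation dates used by the authors as a covariate were not used here. The alternatives were DESeq2 1.42.0, other normalization, fits, and filters, a replicate block, covariates (sva 3.50.0), and each mouse left out. The fits were run on simulated data as a check of the code. Genes were drawn independently there, without the Arntl split or mice apart, so the simulation does not bear on single calls.

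The genes compared, the gene lists, and the rule for named genes (all calls, the genes the study's text names, the lowest p of each list, genes with different responses, the 3 nearest misses, and Arntl) were chosen with earlier results of these data known. Other list members, neighbors, and vehicle calls were named after their values were seen. 1 gene that the rule names is not reported here. Counting intervals cover counting error only. One library title lacks a letter, and its group was taken from its treatment label. Promoters on chromosome 18 were not used. P-values measure the spread between mice.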

Additional observations from a re-analysis of the deposited data

Results flagged for a closer look

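Of 106 groups of 5 mice examined on the log2 CPM scale (53 named genes in both CDDO-Me-treated genotypes), 10 held a mouse apart from the other 4, and chance flags about 1 in 20 groups. Among called genes these were Ide in Nrf2-knockout replicate 2 (7.12, the others 7.35 to 7.43), Nfe2l2 in C151S replicate 1 (5.39, the others 6.10 to 6.33), Abcc3 in C151S replicate 1 (7.07, the others 7.99 to 8.25), and Ugt2b35 in C151S replicate 3 (7.84, the others 7.03 to 7.09). Among genes that were not called, Selenbp2 was high in C151S replicate 3 (7.35), and Sc5d was low in C151S replicate 5 (7.93) and in Nrf2-knockout replicate 2 (7.44). Tap1 was low in Nrf2-knockout replicate 5 (3.90). Gpx2, with 0 to 2 counts per library, had C151S replicate 3 apart (-4.08) and Nrf2-knockout replicate 2 apart (-3.22). Nrf2-knockout replicate 2 and C151S replicate 3 thus appear 3 times each, and C151S replicate 1, which also had the lowest Gm42031, Plcd3, and Gm4316 of its group, appears 2 times.

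The response to CDDO-Me differed between C151S and Nrf2-knockout mice for Gm42031 by 4.32 and for Plcd3 by 3.33 on the log2 scale, by the test of the difference itself.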

How the results depend on the processing

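The count of genes called after CDDO-Me (23, of which 18 higher and 5 lower) was 131 (76 higher, 55 lower) with DESeq2 and 126 (78 and 48) in 1 fit of all 30 libraries, both holding all 23 genes. Without a filter on low counts it was 35 (27 and 8), and with the replicate number as a block 8 (5 and 3), all 8 among the 23. These 8 were Ces1b, Ces1g, Aox1, Abcc3, Nfe2l2, Ide, Frmd8, and Gm3608. The count stayed between 20 and 28 under the other normalization, the edgeR 4 fit, the stricter filter, the Arntl covariate, and 1 surrogate variable, the last of which shared 17 of the 23. Lost with the surrogate variable were Scnn1a, Slc35e3, Ugt2b35, Gm42031, Fam118a, and Mocs1. Mocs1 was also lost without a filter on low counts. Leaving out each mouse gave 11 to 38 calls, 7 to 27 higher and 2 to 11 lower: 38 without C151S replicate 2, 11 without C151S replicate 4 or Nrf2-knockout replicate 1 or 5, 12 without Nrf2-knockout replicate 3, and 15 without Nrf2-knockout replicate 4. Ces1b, Aox1, Gm3608, Ide, Nfe2l2, and Abcc3 were called in every alternative in which they were tested. The count after vehicle (50) was 193 with DESeq2, 79 without a filter, 99 in the fit of all libraries, 89 with the Arntl covariate, 9 with the replicate block, and 29 to 54 with a mouse left out, lowest without Nrf2-knockout replicate 2. The 2 genes with a different response became 0 in a fit of the mutant libraries, and the cause was not tested. The count was also 0 with the stricter filter, which removed both genes before the test and so cannot speak to them. Whether replicate numbers mark pairs could not be settled from 5 pairs. Residuals of same-numbered mice had correlations of -0.25 to 0.40 over 2000 genes, above 0.1 in 2 of 5 pairs. Their mean was 0.031, beside 0.0088 for mice with different numbers.

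Differences that changed sign were all in genes not called: Fos with the block (-0.18), Keap1 (-0.023) and Arntl (0.39) with the surrogate variable, and, with a mouse left out, Fos (-0.29 to 0.42), Arntl (-0.73 to 0.75), and Elovl3 (-0.78 to 0.22). Transcripts of a few counts per library, such as Gpx2, and Gm3608 in C151S, were limited by depth.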
